A study of Mus musculus with 56 samples.

Results

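The first 4 h of food in day-fed mice were described by comparing 4 RNA sequencing libraries of gastrocnemius muscle taken at zeitgeber time (ZT, hours after lights on) 4 with 4 libraries taken at ZT0, gene by gene. The members were taken from the sample labels, not from measured values, and make up 8 of the 56 libraries of the series. The gastrocnemius is the large fast-twitch muscle of the calf. Both groups were female C57BL/6J mice of 9 weeks on daytime-restricted feeding (DRF), and the labels name no altered gene and no drug in any group. All mice, the comparison groups included, had first been kept for 7 days in 12 h of light and 12 h of dark with chow at all times and then for 7 days on DRF or on nighttime-restricted feeding (NRF). The whole series holds both regimens at 7 times with 4 libraries each. The comparison groups used here were NRF at ZT0, ZT4, ZT12 and ZT16 and DRF at ZT24. NRF at ZT0 and ZT4 cover the same clock hours without a meal, the first 4 h of a fast. NRF at ZT12 and ZT16 cover the first 4 h of food in the dark. DRF at ZT24 shares its clock time and feeding state with DRF at ZT0. The labels name the regimens and not the hours at which food was given. DRF was read as food in the light phase, which puts DRF ZT0 at the end of a 12 h fast. NRF was read as food in the dark phase, which puts NRF ZT0 at the end of feeding. The labels do not say whether each library came from a separate mouse. The p-values measure the spread between libraries only, taken for each gene over all 14 groups of the series.

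Between meals muscle turns from glucose to fatty acids: the pyruvate dehydrogenase kinase PDK4 closes the entry of pyruvate into the tricarboxylic acid cycle, and transcription factors of the PPAR and FoxO families raise genes of fat use and of protein breakdown. Insulin and amino acids released by a meal act against this state, insulin by sending FoxO out of the nucleus and amino acids through the kinase complex mTORC1. Glucocorticoid hormone, which in rodents peaks around the onset of feeding or activity, works in the same direction as fasting on many of these genes.

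Values are CPM, reads scaled to a library of 1e+06 reads, recovered from the deposited table, and are compared within a gene only, since CPM are not divided by gene length. The 56 libraries held 28173235 to 36183625 recovered reads. Differences are given as log2(CPM + 1) at ZT4 minus ZT0 with the standard error of the limma fit, and p-values were adjusted over the 12025 genes tested by the Benjamini-Hochberg method. The 7 markers of skeletal muscle fibres summed to 111375 to 174434 CPM in the 8 libraries, while 8 lymphocyte and neutrophil markers together stayed at or under 0.778 CPM. DRF ZT0 replicate 3 stood apart: its matrix markers summed to 3105 CPM against 1245 to 1776 in the other 7 libraries, its tendon markers to 723 against 261 to 405, its muscle fibre markers to 111375 against 129697 to 174434, and slow myosin Myh7 was 1548 CPM against 599 to 657 in the other ZT0 libraries. Of the genes in the 12 lists of cell type and handling markers, 4 passed the test: Cldn5 of endothelial cells fell (-0.71 ± 0.19, adjusted p = 0.0321; 0.192 without DRF ZT0 replicate 3, and past the test in 2 of the 8 fits that each left out 1 library), Chodl of satellite cells fell (-0.66 ± 0.17, adjusted p = 0.0242; 0.121 without DRF ZT0 replicate 1, 3 of 8 fits), and Myod1 and Hspa1a rose. These were 1 of 8 endothelial genes tested, 1 lower and 1 higher of 6 satellite cell genes, and 1 of 4 handling genes. No gene of the other marker lists passed. Of all genes tested 2.77% passed, 1.64% upward and 1.13% downward. In bulk samples, fewer cells of a type and less RNA per cell cannot be told apart.

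Within the first 4 h of food, 333 of 12025 genes passed the test (2.77%). Of these, 197 were higher at ZT4 (1.64% of genes tested) and 136 were lower (1.13%). The falls were the larger changes: the median fold was 1.55 for the genes that fell and 1.32 for those that rose, and 24 falls and 18 rises reached 2-fold. In 303 of the 333 genes the 4 ZT4 libraries did not overlap the 4 ZT0 libraries, which was so for 1328 of all genes tested (11%); 183 were higher, against 6.34% of all genes, and 120 lower, against 4.71%. The count depended on single libraries: it was 133 without DRF ZT0 replicate 1, 172 without DRF ZT0 replicate 3, 190, 172 and 173 without DRF ZT4 replicate 2, 3 or 4, and 266 to 300 without any of the other 3. With libraries scaled by their plain read totals 157 genes passed, 69 higher and 88 lower, against 59.2% higher in the values used here. Of the 80 named genes that passed, 28 did not with plain totals: Atg4b, B4galt5, Bhlhe41, Bysl, Ccn2, Cldn5, Cyp51, Depp1, Eif4a1, Errfi1, Fam107a, Hspa1a, Hyou1, Insig1, Klf9, Mylip, Myod1, Nolc1, Nop2, Nop56, Nrf1, Osgin1, Ppp1r3b, Psmd11, Sqle, Stc2, Timp4 and Txnrd1. With only the 2 groups compared in the fit 35 of the 80 did not pass (186 of all genes did): Atg4b, B4galt5, Banp, Bcl2l11, Bhlhe41, Cebpd, Chodl, Cyp51, Ddit4, Depp1, Dusp10, Errfi1, Fam107a, Hspa1a, Hspa1b, Insig1, Irs2, Klf4, Klf9, Mrtfa, Msmo1, Myod1, Nolc1, Nop56, Nr4a2, Nrf1, Plin4, Ppp1r3b, Psmd11, Scd2, Slc38a9, Slc43a1, Sqle, Tnfaip2 and Trim63. Below, the number of fits out of 8 that each left out 1 of these libraries is given for genes whose call did not hold in all of them. The largest rises and falls named below were picked among genes without overlap, so that trait was set by the choice.

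**Figure D1:**
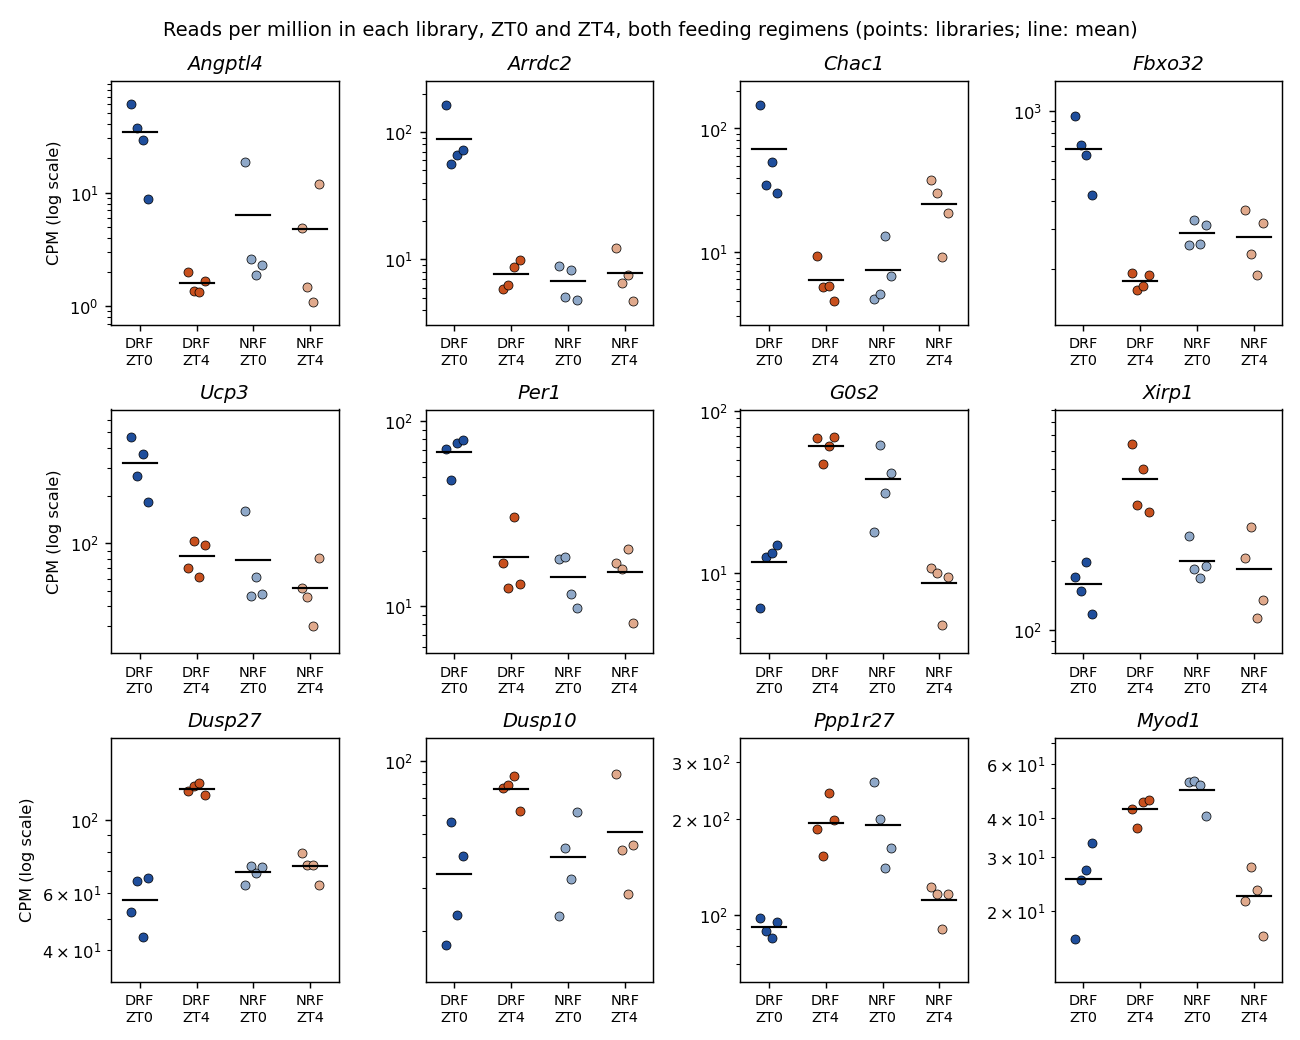
CPM (log axes) of 12 genes in each library of DRF ZT0, DRF ZT4, NRF ZT0 and NRF ZT4; points are libraries, 4 per group, and lines are group means. The 4 DRF ZT4 libraries lie wholly below the DRF ZT0 libraries for the first 6 genes and wholly above them for the last 6.

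The steepest fall among the named genes was in the fasting fuel switch. Angptl4, which encodes a secreted inhibitor of lipoprotein lipase and so limits fat uptake (chromosome 17, 33774900 to 33781575, GRCm38.p6), was 60.4, 37.02, 29.3 and 8.83 CPM in the 4 ZT0 libraries and 1.99, 1.35, 1.34 and 1.68 CPM at ZT4. Every ZT4 library was below every ZT0 library, and the ZT0 libraries themselves spread over a wide range (log2 difference -3.49 ± 0.56, adjusted p = 0.000179). Ucp3, the muscle uncoupling protein of the inner mitochondrial membrane, was 467, 267, 365 and 182 CPM at ZT0 and 70.4, 104, 61.8 and 98.02 CPM at ZT4 (log2 difference -1.88 ± 0.38, adjusted p = 0.00275). Cpt1a, the liver form of the carnitine transferase that admits fatty acids into mitochondria, fell from 21.4 ± 3.99 to 8.45 ± 0.914 CPM (mean ± SD, n = 4; -1.23 ± 0.22, adjusted p = 0.000635). These 3 were the only members of the list of 21 fasting fuel genes that passed, all downward, against 1.13% of all genes tested, and they also passed in each of the 8 fits that left out a library. With only the 2 groups in the fit 4 of the 21 passed, with ZT24 in place of ZT0 5 and with library weights 6, all downward. The median of the list was -0.14 against 0.02 for all genes tested.

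Pdk4 itself did not pass. Its values were 4694, 2483, 3076 and 1234 CPM at ZT0 and 656, 688, 378 and 684 CPM at ZT4, without overlap (log2 difference -2.14 ± 0.76, adjusted p = 0.134). The ZT0 libraries were widely spread. The standard error is taken over all 14 groups, and Pdk4 was 406, 101, 16.8 and 459 CPM at NRF ZT4. Cpt1b, the muscle form of the transferase, was 383 ± 67.7 CPM before and 386 ± 29.98 CPM after 4 h of food (0.02 ± 0.19, adjusted p = 0.974). None of the 25 tested genes of fatty acid uptake and oxidation passed limma, against 2.77% of all genes tested. None of the 25 had an unadjusted p under 0.05, against 1607 of all 12025 genes. Their median difference was 0.05.

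Among FoxO targets and genes of muscle atrophy 4 of 25 passed, all lower at ZT4, against 1.13% of all genes tested. Fbxo32 encodes atrogin-1, a muscle ubiquitin ligase subunit that marks proteins for breakdown. It was 952, 708, 637 and 423 CPM at ZT0 and 191, 161, 167 and 187 CPM at ZT4 (log2 difference -1.89 ± 0.30, adjusted p = 0.000168). The 4 fed libraries lay close together, while those at the end of the fast ran from 423 to 952 CPM. Klhl38, a Kelch-like protein that rises in wasting muscle, was 109, 99.1, 92.3 and 46.6 CPM at ZT0 and 25.2, 24.5, 25.2 and 29.8 CPM at ZT4 (log2 difference -1.63 ± 0.32, adjusted p = 0.00176). Trim63, which encodes the ubiquitin ligase MuRF1, was 564, 223, 265 and 205 CPM at ZT0 and 149.9, 155, 146 and 148 CPM at ZT4 (log2 difference -0.94 ± 0.21, adjusted p = 0.00686), with ZT0 replicate 1 far above the other 3. Ddit4, an inhibitor of mTORC1, was 40.9, 10.6, 8.37 and 6.73 CPM and 3.45, 2.88, 5.68 and 4.82 CPM (log2 difference -1.43 ± 0.38, adjusted p = 0.0254), again with ZT0 replicate 1 far above the other 3. Without that library Trim63 had an adjusted p of 0.0925 (it passed in the other 7 fits) and Ddit4 of 0.228 (4 of 8), and 2 of the 25 passed; 7 passed without DRF ZT0 replicate 4. Foxo1, the factor itself, was 69.3, 28.1, 54.003 and 28.04 CPM and 25.2, 26.4, 21.6 and 22.4 CPM, without overlap, and did not pass (log2 difference -0.78 ± 0.24, adjusted p = 0.0688).

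The promoter of Trim63 is shown because it carries, side by side, matches to the letters of a glucocorticoid receptor site and of a FoxO site, the 2 factors named above as acting in a fast. The window runs from 250 bases before the annotated start to 50 bases after it on the plus strand of GRCm38.p6 (RefSeq), chr4:134314870-134315169, and capitals mark the run that holds both matches, GNACA and TGTNC with 3 bases of any kind between them, then TGTTTAC, with a single lower-case base between the matches.
Trim63 promoter: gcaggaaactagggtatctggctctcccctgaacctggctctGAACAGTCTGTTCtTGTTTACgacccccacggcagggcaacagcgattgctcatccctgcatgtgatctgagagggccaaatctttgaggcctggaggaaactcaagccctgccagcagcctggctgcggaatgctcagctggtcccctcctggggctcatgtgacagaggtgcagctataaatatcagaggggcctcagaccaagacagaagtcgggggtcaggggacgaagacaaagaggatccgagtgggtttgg

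Both motifs were then looked for, on either strand, in the promoter windows of the 9612 tested genes that the RefSeq table covers. The FoxO letters TGTTTAC were in 11 of 110 genes that fell (10%), in 3 of 159 that rose (1.89%) and in 293 of all 9612 (3.05%). The receptor letters were in 4 of the 110 that fell (3.64%), in none of the 159 that rose and in 40 of all (0.416%). They are descriptions of letters in a window, not of bound sites, and the pair was picked from 19 spellings that were looked at. The matches below are shown to let the sites be compared, with 10 bases on either side and the match in capitals; genes other than Trim63 were chosen after their values were seen.
Trim63, receptor letters, chr4:134314902-134314934, plus strand: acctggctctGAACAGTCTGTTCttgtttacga
Map3k6, receptor letters, chr4:133240627-133240659, plus strand: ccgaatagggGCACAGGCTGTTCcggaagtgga
Slc10a6, receptor letters, chr5:103629544-103629576, minus strand: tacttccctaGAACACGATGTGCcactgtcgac
Fam107a, receptor letters, chr14:8309875-8309907, minus strand: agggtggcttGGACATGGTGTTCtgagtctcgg
Trim63, FoxO letters, chr4:134314916-134314942, plus strand: agtctgttctTGTTTACgacccccacg
Klf9, FoxO letters on the opposite strand, chr19:23141116-23141142, plus strand: gggggagaaaGTAAACAgagttgaatc
Pim1, FoxO letters on the opposite strand, chr17:29493005-29493031, plus strand: cccaaagtttGTAAACAggaatcacgt
Bcl2l11, FoxO letters on the opposite strand, chr2:128125801-128125827, plus strand: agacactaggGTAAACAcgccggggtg

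Of the genes with these windows, Map3k6, a stress kinase, was 13.1, 6.19, 11.4 and 6.70 CPM at ZT0 and 4.63, 4.09, 3.18 and 3.46 CPM at ZT4 (log2 difference -1.05 ± 0.23, adjusted p = 0.0047). Klf9, a Krüppel-like factor induced by glucocorticoids, was 235, 159, 172 and 139.6 CPM and 131, 134, 109 and 112 CPM (log2 difference -0.52 ± 0.15, adjusted p = 0.0434). Bcl2l11 encodes the cell death protein BIM and was 18.6, 16.1, 16.7 and 10.5 CPM and 10.5, 9.85, 10.2 and 7.18 CPM (log2 difference -0.64 ± 0.16, adjusted p = 0.0179); its reads include shared ones that the authors split between genes. The groups did not overlap in Map3k6 and Klf9 and did in Bcl2l11. Pim1, a kinase of growth signalling, fell as well (-0.98 ± 0.23, adjusted p = 0.0111; 0.0748 without DRF ZT0 replicate 1, 6 of 8 fits). Slc10a6, a steroid sulfate carrier (-0.89 ± 0.22, adjusted p = 0.0136), and Fam107a, an actin-binding protein (-0.94 ± 0.27, adjusted p = 0.0434), stood at low levels, with ZT0 means of 1.92 and 4.32 CPM. Without 1 library the adjusted p reached 0.0522 for Map3k6 and 0.0935 for Slc10a6 (both without DRF ZT0 replicate 1), 0.191 for Fam107a (without DRF ZT0 replicate 3) and 0.115 for Bcl2l11 (without DRF ZT4 replicate 4). Of 8 fits, Map3k6 passed in 7, Slc10a6 in 6, Bcl2l11 in 5 and Fam107a in 2.

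The glucocorticoid-responsive list held more called genes than any other of the 28 pathway lists. Of its 21 tested genes 9 passed, all downward, against 1.13% of all genes tested, 20 of the 21 had a difference below 0, and the median was -0.72. Besides Angptl4 and Ddit4 the called genes were Arrdc2, Per1, Cebpd, Arrdc3, Tsc22d3, Errfi1 and Klf9. Cebpd, a transcription factor of the C/EBP family, was 83.9, 26.6, 16.9 and 17.8 CPM at ZT0 and 11.3, 8.12, 11.8 and 7.18 CPM at ZT4 (log2 difference -1.52 ± 0.40, adjusted p = 0.0229), with replicate 1 far above the rest; part of its reads is shared with other genes. Tsc22d3, which encodes the glucocorticoid-induced protein GILZ, was 353, 188, 205 and 227 CPM and 106, 138, 123 and 151 CPM (log2 difference -0.87 ± 0.24, adjusted p = 0.0315). Errfi1, a feedback inhibitor of the epidermal growth factor receptor, fell by less (-0.72 ± 0.20, adjusted p = 0.0338). Fkbp5, a chaperone of the receptor and a usual marker of its activity, ran from 17.7 to 128 CPM at ZT0 and was 64.9, 73.7, 49.2 and 53.4 CPM at ZT4, with the groups overlapping (log2 difference 0.13 ± 0.39, adjusted p = 0.928). The number of list members called was 4 without DRF ZT0 replicate 1, 4 without DRF ZT4 replicate 2, 5 without DRF ZT4 replicate 1 or 4, and 7 to 9 in the other 4 fits; the adjusted p without DRF ZT0 replicate 1 was 0.201 for Cebpd, 0.181 for Tsc22d3, 0.182 for Errfi1 and 0.238 for Klf9. Other libraries mattered as well: Cebpd passed in 5 of 8 fits, Tsc22d3 in 3, Errfi1 in 3 and Klf9 in 2.

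Arrdc2 and Arrdc3 belong to the α-arrestins, adaptors that direct membrane proteins to endosomes, of which Txnip also restrains glucose uptake. Arrdc2 was 162, 55.9, 65.5 and 72.1 CPM at ZT0 and 5.88, 6.29, 8.72 and 9.92 CPM at ZT4, a 9.60-fold difference on the log2(CPM + 1) scale (log2 difference -3.26 ± 0.51, adjusted p = 0.000152). Arrdc3 was 151, 83.95, 107 and 79.6 CPM and 41.2, 34.7, 40.9 and 29.97 CPM (log2 difference -1.46 ± 0.23, adjusted p = 0.000168). Neither gene's groups overlapped, and both calls held in all 8 fits. Txnip was 1151, 751, 678 and 471 CPM and 393, 578, 760.4 and 589 CPM, overlapping ranges, and did not pass (log2 difference -0.36 ± 0.27, adjusted p = 0.628). Txnrd1, the cytosolic thioredoxin reductase, rose slightly (0.33 ± 0.09, adjusted p = 0.0374; 2 of 8 fits, adjusted p up to 0.116 without DRF ZT0 replicate 3). At DRF ZT24 Txnrd1 was 119, 68.6, 101 and 93.2 CPM, with the ZT4 values of 99.9, 88.9, 95.2 and 96.1 CPM inside that range.

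Chac1, a glutathione-degrading enzyme induced by the stress factor ATF4, fell from 155, 34.6, 53.3 and 29.7 CPM to 9.18, 5.18, 5.25 and 4.003 CPM (log2 difference -3.05 ± 0.45, adjusted p = 8.28e-05; chromosome 2, 119351242 to 119354326, GRCm38.p6). The lowest ZT0 library stood well above the highest ZT4 library, and ZT0 replicate 1 was the highest of all. Atf4 itself went the other way, from 159 ± 10.9 to 208 ± 15.1 CPM (0.39 ± 0.09, adjusted p = 0.0134; 5 of 8 fits, adjusted p up to 0.0575 without DRF ZT4 replicate 3). The other 20 tested genes of the integrated stress and amino acid response did not pass, among them Ddit3 (0.41 ± 0.17, adjusted p = 0.229) and the asparagine synthetase gene Asns (0.14 ± 0.20, adjusted p = 0.838). So 1 of the 22 tested rose and 1 fell, against 1.64% and 1.13% of all genes tested.

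Of 29 genes of mTORC1, amino acid sensing and transport, 2 passed, both lower with food, against 1.13% of all genes tested. Slc43a1, a carrier of leucine and other large neutral amino acids, was 47.5, 35.6, 20.2 and 29.5 CPM at ZT0 and 17.9, 16.6, 15.7 and 16.4 CPM at ZT4 (log2 difference -0.89 ± 0.22, adjusted p = 0.0146). Slc38a9, the lysosomal arginine sensor that activates mTORC1, was 22.2, 18.7, 22.1 and 16.2 CPM and 14.8, 12.8, 15.1 and 14.6 CPM (log2 difference -0.43 ± 0.09, adjusted p = 0.00583). Neither passed without DRF ZT0 replicate 1 (adjusted p = 0.108 and 0.051), and Slc43a1 also not without DRF ZT4 replicate 3 (0.0503); they passed in 6 and 7 of 8 fits. With only the 2 groups in the fit their adjusted p was 0.0594 and 0.0747. The leucine carrier Slc7a5 (0.05 ± 0.20, adjusted p = 0.948) and its partner Slc3a2 (0.09 ± 0.08, adjusted p = 0.702) did not pass. Of 30 autophagy genes 1 fell and 1 rose, against 1.13% and 1.64% of all genes tested. Atg14, a subunit of the lipid kinase complex that starts autophagosomes, fell from 12.4 ± 1.24 to 8.75 ± 0.834 CPM (-0.46 ± 0.09, adjusted p = 0.0016), and Atg4b, a protease of the LC3 family, rose by little (0.23 ± 0.06, adjusted p = 0.0411; 2 of 8 fits, adjusted p up to 0.138 without DRF ZT0 replicate 1).

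In the insulin and IGF list 1 of 24 genes passed, downward, against 1.13% of all genes tested. Irs2, an insulin receptor substrate, was 30.6, 26.7, 70.5 and 21.1 CPM at ZT0 and 14.1, 14.04, 11.7 and 12.5 CPM at ZT4 (log2 difference -1.29 ± 0.26, adjusted p = 0.00235), and ZT0 replicate 3 was the highest. It did not pass with only the 2 groups in the fit (adjusted p = 0.0599). Irs1 ran from 93.3 to 137 CPM at ZT0 and was 129, 112, 195 and 195 CPM at ZT4 (log2 difference 0.42 ± 0.23, adjusted p = 0.452), and Insr differed by -0.04 ± 0.11 (adjusted p = 0.923). For neither gene did the groups separate.

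A few early-response genes were high in the ZT0 libraries. Of 28 genes of the immediate early and activity list 4 passed, all lower at ZT4, against 1.13% of all genes tested: Sik1, a salt-inducible kinase, at 33.6, 30.4, 58.8 and 32.7 CPM and 11.9, 9.68, 19.5 and 10.4 CPM (log2 difference -1.52 ± 0.27, adjusted p = 0.000635), and Klf4 (-1.13 ± 0.28, adjusted p = 0.0162), Nr4a2 (-1.13 ± 0.22, adjusted p = 0.00176) and Klf6 (-0.92 ± 0.19, adjusted p = 0.00352), which are transcription factors. Slc25a25, a calcium-dependent ATP and phosphate carrier of mitochondria, was 209, 124, 220.4 and 258 CPM and 26.9, 17.5, 109 and 36.8 CPM (log2 difference -2.36 ± 0.60, adjusted p = 0.0184); part of its reads is shared with other genes, and it passed in 2 of 8 fits (adjusted p up to 0.104 without DRF ZT4 replicate 2). Klf4 passed in 4 of 8 (up to 0.123 without DRF ZT0 replicate 3). The groups of Klf4 overlapped. Fos (-0.20 ± 0.49, adjusted p = 0.908) and Fosb (0.62 ± 0.36, adjusted p = 0.478) did not pass, and a single ZT4 library of Fosb stood at 12.4 CPM against 0.684 to 0.995 in the other 3.

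Sik1, Nr4a2, Slc25a25 and Irs2 had higher means at ZT0 than at ZT24, both of which are at lights on at the end of the fast. Slc25a25 had a mean of 203 CPM at ZT0, 47.6 at ZT4 and 28.1 at ZT24. Sik1 had 38.9, 12.9 and 14.5 CPM, Nr4a2 6.01, 1.83 and 2.68, and Irs2 37.2, 13.1 and 19.2. DRF ZT0 replicate 3 was the highest ZT0 library in Sik1, Nr4a2 and Irs2. Nr4a2 was 3.20, 3.96, 13.03 and 3.84 CPM at ZT0, so that its ZT0 mean was 3.67 CPM without that library, where its log2 difference was -0.73 (adjusted p = 0.0257); the ZT0 mean of Irs2 was then 26.2 CPM and that of Sik1 32.2 CPM. Of the 6 listed markers of RNA quality and handling, Malat1 and Neat1 had no values, which left Hspa1a, Fos, Egr1 and Jun. These 4 summed to 194 CPM in DRF ZT0 replicate 3 and to 102 to 173 CPM in the other 7 libraries. They are heat shock and early-response genes themselves, so the sum gives no separate measure of RNA quality or handling. The part of handling in these values was not tested. With ZT24 in place of ZT0, limma called none of the 28 list members (3 had an unadjusted p under 0.05), and the list median was 0.11 against -0.15 with ZT0. Among single genes, none of Sik1 (-0.20, adjusted p = 0.784), Nr4a2 (-0.35, 0.431), Klf4 (-0.29, 0.656), Klf6 (-0.27, 0.51) and Irs2 (-0.43, 0.409) passed, and the difference in Slc25a25 turned to 0.69 (0.606). The large falls in fasting genes were there against ZT24 as well: Fbxo32 at -2.30, Angptl4 at -3.94, Chac1 at -3.63 and Trim63 at -1.62, all past the test. Both sets of differences use the same ZT4 libraries. Against ZT24, 508 genes passed, and 180 of the 333 were among them.

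**Figure D2:**
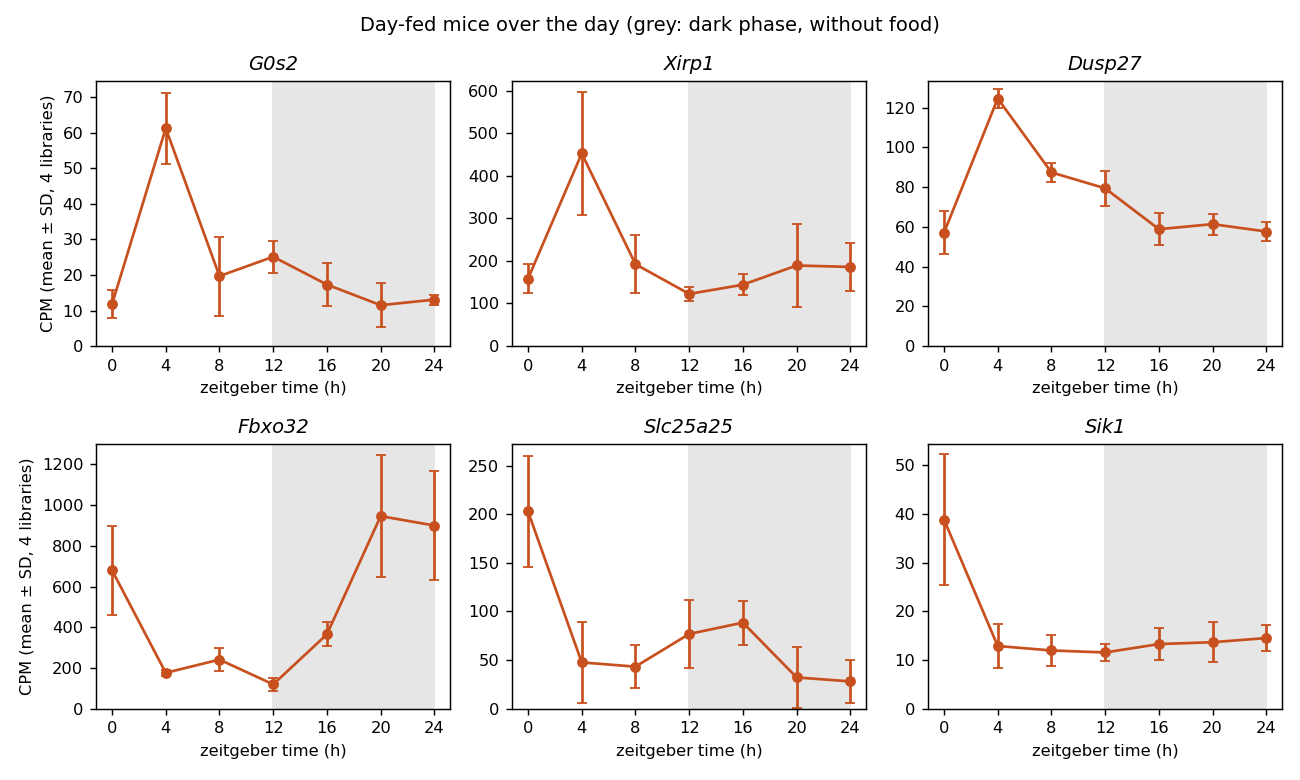
CPM over the day in day-fed mice for 6 genes; points are means of 4 libraries, bars are SD, grey marks the dark phase without food, and lines join groups of separate libraries. G0s2, Xirp1 and Dusp27 are highest at ZT4, Fbxo32 is low from ZT4 to ZT12 and highest at ZT20 and ZT24, and Slc25a25 and Sik1 have their highest mean at ZT0.

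The largest rise was in G0s2, which encodes an inhibitor of adipose triglyceride lipase, the enzyme that starts the breakdown of stored fat (chromosome 1, 193272160 to 193273188, GRCm38.p6). G0s2 was 6.09, 12.6, 13.3 and 14.9 CPM at ZT0 and 68.2, 47.3, 60.6 and 68.8 CPM at ZT4, a 5.05-fold rise on the log2(CPM + 1) scale (log2 difference 2.34 ± 0.45, adjusted p = 0.00162). Every fed library was above every fasted library, and the call held in all 8 fits. The lipase gene Pnpla2 (0.24 ± 0.26, adjusted p = 0.763) and Plin2, a lipid droplet coat (0.09 ± 0.12, adjusted p = 0.831), did not pass. Plin4, another droplet coat, fell from 521 ± 146 to 308 ± 48.9 CPM (-0.73 ± 0.18, adjusted p = 0.0184; 5 of 8 fits, adjusted p up to 0.117 without DRF ZT4 replicate 3). The adipocyte markers summed to 3643 to 5280 CPM at ZT0 and 3781 to 5012 CPM at ZT4. Of these 12 markers 9 had a difference above 0, with a median of 0.40 against 0.02 for all genes tested. None passed limma, and 2 had an unadjusted p under 0.05. Their part in the rise of G0s2 was not tested.

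Part of the genes of sterol synthesis and cholesterol control rose. Of 29 tested, 6 passed, all upward, against 1.64% of all genes tested; 27 of the 29 had a difference above 0, and the median was 0.22. The synthesis enzymes Sqle (0.85 ± 0.21, adjusted p = 0.016), Msmo1 (0.72 ± 0.16, adjusted p = 0.00693) and Cyp51 (0.51 ± 0.14, adjusted p = 0.0387) and the SREBP anchor Insig1 (0.60 ± 0.15, adjusted p = 0.0154) rose and were highest in ZT4 replicate 1, for Insig1 at 29.9 CPM against 16.2 to 18.2 CPM in the other 3 fed libraries. The groups of Sqle and Cyp51 overlapped. Mylip, which encodes a ubiquitin ligase and not an enzyme of synthesis, also rose (0.40 ± 0.10, adjusted p = 0.0204). Hmgcs1, the synthase that makes HMG-CoA, did not pass (0.15 ± 0.12, adjusted p = 0.649). In limma 13 of the 29 had an unadjusted p under 0.05, and 10 did with ZT24 in place of ZT0. At DRF ZT24 Insig1 was 19.7, 18.5, 16.8 and 18.4 CPM. Mylip was 25.3, 26.6, 23.9 and 22.8 CPM there, against 24.5, 25.3, 25.2 and 27.7 CPM at ZT4. The ZT24 and ZT4 libraries overlapped in Insig1, Mylip, Sqle and Msmo1. In Cyp51 every ZT24 library was below every ZT4 library. Without DRF ZT0 replicate 1, 1 of the 29 passed, without DRF ZT0 replicate 3 or DRF ZT4 replicate 1 there were 2, and with plain read totals 2. The adjusted p without DRF ZT4 replicate 1 was 0.124 for Sqle, 0.063 for Msmo1, 0.135 for Insig1 and 0.218 for Cyp51, and that of Mylip without DRF ZT4 replicate 4 was 0.0856. Of 8 fits, Msmo1 passed in 6, Insig1 in 5, Sqle in 4, Mylip in 4 and Cyp51 in 3.

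In fatty acid and triglyceride synthesis 1 of 24 genes passed, upward, against 1.64% of all genes tested. In limma 7 of the 24 had an unadjusted p under 0.05, and with ZT24 in place of ZT0 none did. Scd2, a stearoyl-CoA desaturase, was 14.8, 39.7, 23.6 and 22.8 CPM at ZT0 and 78.97, 51.6, 45.5 and 46.5 CPM at ZT4 (log2 difference 1.16 ± 0.27, adjusted p = 0.00915; 6 of 8 fits, adjusted p up to 0.0773 without DRF ZT0 replicate 1, and 0.0594 with only the 2 groups in the fit). Fasn, the fatty acid synthase, was 15.6, 63.5, 21.7 and 64.6 CPM and 229.7, 71.3, 54.4 and 147 CPM, with overlapping groups (log2 difference 1.61 ± 0.62, adjusted p = 0.192), and Srebf1 was 22.8, 37.7, 20.2 and 38.2 CPM and 51.4, 44.3, 41.9 and 42.3 CPM (log2 difference 0.63 ± 0.20, adjusted p = 0.0739), without overlap. Neither passed. Of 32 genes of glucose uptake, glycolysis and glycogen 1 passed, upward, against 1.64% of all genes tested. This was Ppp1r3b, which brings protein phosphatase 1 to glycogen and so favours its synthesis, at 0.669, 2.20, 1.48 and 1.95 CPM and 8.80, 2.88, 2.54 and 4.58 CPM (log2 difference 1.07 ± 0.27, adjusted p = 0.0164; 5 of 8 fits, adjusted p up to 0.135 without DRF ZT4 replicate 1, and 0.126 with only the 2 groups in the fit). The insulin-regulated transporter gene Slc2a4 was 617 ± 30.1 and 595 ± 18.7 CPM (-0.05 ± 0.10, adjusted p = 0.879), hexokinase Hk2 differed by 0.06 ± 0.14, adjusted p = 0.911, and Pfkfb3, which sets the level of a glycolytic activator, was 628, 301, 150.1 and 241 CPM and 142, 103, 259 and 125 CPM (log2 difference -0.96 ± 0.45, adjusted p = 0.321).

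Dusp27, a muscle phosphatase-like protein needed for ordered myofibrils, had the smallest adjusted p of the named genes: 52.2, 65.03, 44.003 and 66.7 CPM at ZT0 and 122, 127, 129.7 and 119 CPM at ZT4 (log2 difference 1.13 ± 0.12, adjusted p = 1.81e-08). Xirp1, an actin-binding protein of the myotendinous junction and of repair sites, was 170.1, 148, 197 and 117 CPM and 637, 348, 497 and 326 CPM (log2 difference 1.48 ± 0.28, adjusted p = 0.00151). Both were without overlap and held in all 8 fits. Ppp1r27, a muscle phosphatase inhibitor, was 97.5, 88.7, 84.8 and 94.8 CPM and 186, 152, 241 and 198 CPM (log2 difference 1.06 ± 0.22, adjusted p = 0.00352), and Rrad, a small GTPase that damps calcium channels, was 1.27, 2.23, 1.84 and 1.63 CPM and 5.51, 4.43, 8.96 and 5.10 CPM (log2 difference 1.32 ± 0.28, adjusted p = 0.00402). Myod1, the myogenic factor also listed as a satellite cell marker, was 16.3, 25.3, 27.1 and 33.4 CPM and 42.9, 37.3, 45.1 and 45.8 CPM (log2 difference 0.76 ± 0.20, adjusted p = 0.0224; 5 of 8 fits, adjusted p 0.163 without DRF ZT0 replicate 1). The satellite cell markers summed to 147 to 163 CPM at ZT0 and 172 to 188 CPM at ZT4. This sum holds Myod1 itself and so gives no separate measure of satellite cells, and Chodl of the same list fell. The part of these cells in the rise of Myod1 was not tested.

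Dusp10, a phosphatase of stress kinases, was 17.4, 55.9, 23.3 and 40.6 CPM at ZT0 and 76.95, 79.8, 86.7 and 62.3 CPM at ZT4 (log2 difference 1.26 ± 0.31, adjusted p = 0.014). Tnfaip2, a gene induced by tumour necrosis factor, was 25.4, 53.1, 25.7 and 59.3 CPM and 83.02, 90.04, 69.7 and 112 CPM (log2 difference 1.18 ± 0.27, adjusted p = 0.00833). In both the groups were apart, which the rule for naming the largest rises required. Bace1, a membrane aspartyl protease, also rose (1.05 ± 0.19, adjusted p = 0.000807), with part of its reads shared. Dusp10 passed in 5 of 8 fits and Tnfaip2 in 6 (adjusted p 0.105 and 0.0688 without DRF ZT0 replicate 1). Of 19 tested myokines and secreted factors 3 fell (against 1.13% of all genes tested) and none rose: Angptl4, the protease inhibitor gene Timp4 (-1.20 ± 0.31, adjusted p = 0.0225) and Ccn2, the connective tissue growth factor (-0.99 ± 0.25, adjusted p = 0.0205). Without DRF ZT0 replicate 3, the library with the most matrix RNA, Timp4 had an adjusted p of 0.121 and Ccn2 of 0.11, and each passed in 4 of 8 fits; 1 of the 19 passed without it, without DRF ZT0 replicate 1 or without DRF ZT4 replicate 4.

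Further regulators were named after their values were seen. Klf11, a Krüppel-like repressor, was 11.9, 8.80, 14.3 and 7.29 CPM at ZT0 and 2.95, 2.50, 4.38 and 3.63 CPM at ZT4 (log2 difference -1.39 ± 0.24, adjusted p = 0.000488), and Mrtfa, an actin-controlled coactivator of serum response factor, was 19.8, 33.3, 23.9 and 40.2 CPM and 43.4, 78.7, 62.2 and 56.3 CPM (log2 difference 1.03 ± 0.22, adjusted p = 0.00405). Both were without overlap and held in all 8 fits. Stc2, a secreted stanniocalcin, rose from a low level (1.03 ± 0.27, adjusted p = 0.0236; 4 of 8 fits, up to 0.115 without DRF ZT4 replicate 3), and Osgin1, a gene of the oxidative stress response, rose too (0.89 ± 0.23, adjusted p = 0.0197; 4 of 8, up to 0.0939 without DRF ZT0 replicate 2). Tob2, an antiproliferative protein of messenger RNA decay, fell (-1.21 ± 0.30, adjusted p = 0.014; 6 of 8, up to 0.0659 without DRF ZT4 replicate 2). Depp1, a FoxO target, was 89.03, 13.3, 14.98 and 5.66 CPM at ZT0 and 3.17, 3.49, 4.85 and 5.95 CPM at ZT4, with overlap, and passed only narrowly (log2 difference -1.87 ± 0.54, adjusted p = 0.047; 1 of 8, up to 0.316 without DRF ZT0 replicate 1).

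Chaperone genes rose in part. Of 24 heat shock genes 3 passed, all upward, against 1.64% of all genes tested, with a list median of 0.16. Hspb8, a small heat shock protein of chaperone-assisted autophagy, was 281, 316, 247 and 350.3 CPM at ZT0 and 424, 439, 472 and 454 CPM at ZT4 (log2 difference 0.59 ± 0.14, adjusted p = 0.0136). The inducible Hsp70 genes Hspa1a and Hspa1b, near-identical neighbours whose reads are shared, were 8.01, 7.94, 20.3 and 9.49 CPM and 72.1, 21.7, 53.2 and 17.3 CPM for Hspa1a (log2 difference 1.63 ± 0.43, adjusted p = 0.0236), and Hspa1b rose as well (1.65 ± 0.40, adjusted p = 0.0134). Their groups overlapped: ZT0 replicate 3 was above ZT4 replicate 4 in both, and 2 of the 4 fed libraries carried most of the rise. Of 8 fits, Hspb8 and Hspa1b passed in 5 each and Hspa1a in 3. Of the 24 genes, 1 passed without DRF ZT4 replicate 1. No heat shock gene passed without DRF ZT0 replicate 1 or without DRF ZT4 replicate 3 (adjusted p of Hspb8 = 0.0593 and 0.051). Hyou1, an endoplasmic reticulum chaperone, was the only called gene of 21 in the endoplasmic reticulum stress list, where 1.64% of all genes tested rose. It went from 26.2 ± 1.65 to 34.3 ± 2.07 CPM (0.38 ± 0.09, adjusted p = 0.0119; 7 of 8 fits, adjusted p 0.0648 without DRF ZT0 replicate 1).

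A few ribosome assembly genes rose by little. Of 40, 4 rose, against 1.64% of all genes tested, and none fell: the nucleolar proteins Nop2 (0.41 ± 0.09, adjusted p = 0.00405), Nolc1 (0.33 ± 0.09, adjusted p = 0.0334) and Nop56 (0.29 ± 0.07, adjusted p = 0.0134) and the small-subunit factor Bysl (0.29 ± 0.08, adjusted p = 0.038), part of whose reads is shared. Nop2 was 20.6, 21.4, 21.5 and 19.99 CPM at ZT0 and 24.8, 27.6, 30.9 and 29.3 CPM at ZT4, without overlap, and passed in all 8 fits. The median of the 40 was 0.11. Scaling by plain read totals left none of the 40 past the test, and 1 to 3 passed in the fits without 1 library (1 without DRF ZT0 replicate 3 or DRF ZT4 replicate 3); the adjusted p of Bysl reached 0.142 and of Nolc1 0.15 without DRF ZT4 replicate 3, and of Nop56 0.0947 without DRF ZT0 replicate 3. Of the 8 fits, Nop56 passed in 6, Nolc1 in 2 and Bysl in none. The helicase gene Eif4a1 was the only 1 of 29 translation factors called (0.33 ± 0.07, adjusted p = 0.003), and Psmd11 the only 1 of 33 proteasome genes (0.24 ± 0.07, adjusted p = 0.0278; 2 of 8 fits, adjusted p up to 0.121 without DRF ZT0 replicate 3). Both rose, as did 1.64% of all genes tested. With plain read totals Eif4a1 did not pass (adjusted p = 0.295). At DRF ZT24 Psmd11 was 146, 118, 133 and 132 CPM, against 137, 136, 140 and 133 CPM at ZT4, with overlap. Eif4a1 was 102, 91.6, 102 and 108 CPM at DRF ZT24, against 125, 109, 126 and 119 CPM at ZT4. Nrf1, a regulator of mitochondrial genes, passed narrowly and upward as the only 1 of 23 PPAR, PGC-1 and ERR regulators, against 1.64% of all genes tested (0.27 ± 0.07, adjusted p = 0.0374). Part of its reads is shared, and it passed in none of the 8 fits (adjusted p up to 0.132 without DRF ZT0 replicate 3).

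**Figure D3:**
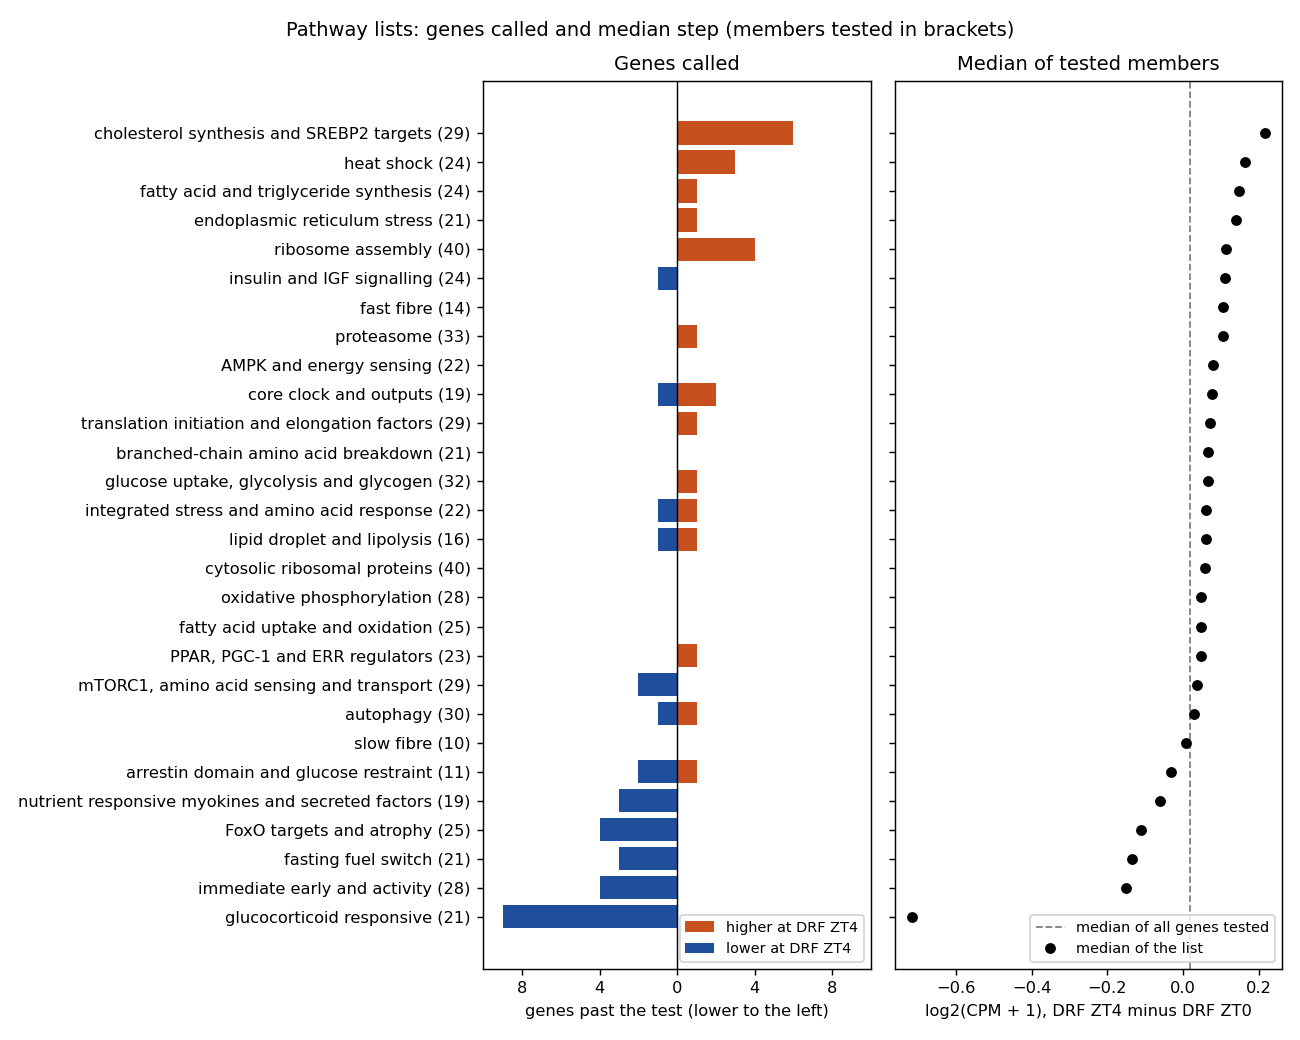
Genes past the test in each of the 28 pathway lists (left, numbers of genes, lower to the left) and the median log2(CPM + 1) difference of the tested members (right), with the median of all genes tested as a dashed line; brackets give the members tested. The glucocorticoid list has 9 falls and a median of -0.72, the sterol list 6 rises and 0.22, and most other medians lie between 0 and 0.2.

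In 7 of the 28 lists no gene passed limma, where 2.77% of all genes tested did. They were fatty acid uptake and oxidation, oxidative phosphorylation (0 of 28), cytosolic ribosomal proteins (0 of 40), the AMPK list (0 of 22), branched-chain amino acid breakdown (0 of 21), slow fibre genes (0 of 10) and fast fibre genes (0 of 14). At an unadjusted p under 0.05 there were 3 genes in the AMPK list, 2 in branched-chain amino acid breakdown and none in the other 5, against 1607 of all 12025 genes tested. With ZT24 in place of ZT0, limma gave such a p for 9 of the 40 cytosolic ribosomal protein genes. There were then 4 in the AMPK list, 1 in branched-chain amino acid breakdown and none in the rest. With ZT0 the medians of the 7 lists ran from 0.01 to 0.11.

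Clock genes moved in part. Of 19 tested, Nr1d1 and Bhlhe41 rose, against 1.64% of all genes tested, and Per1 fell, against 1.13%. Nr1d1, which encodes the repressor REV-ERBα, was 118, 91.6, 58.5 and 85.6 CPM at ZT0 and 218, 289.9, 266 and 208 CPM at ZT4 (log2 difference 1.49 ± 0.27, adjusted p = 0.000681); it overlaps the gene of a thyroid hormone receptor on the other strand, and part of its reads is shared. Per1, a period gene that also responds directly to hormones and activity, was 70.8, 47.9, 75.7 and 79.2 CPM and 17.2, 12.6, 30.4 and 13.2 CPM (log2 difference -1.90 ± 0.34, adjusted p = 0.000635). The Per1 promoter held the E-box letters CACGTG, the site of the clock activators, which 1145 of the 9612 tested genes with a window also held (11.9%), as did 16.4% of those that fell and 10.7% of those that rose. The match is shown with 10 bases on either side and the match in capitals.
Per1, E-box letters, chr11:69098773-69098798, plus strand: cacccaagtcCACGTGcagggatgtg

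Bhlhe41, an E-box repressor, passed narrowly (0.89 ± 0.26, adjusted p = 0.0457; 3 of 8 fits, adjusted p up to 0.229 without DRF ZT0 replicate 3). Arntl (0.22 ± 0.21, adjusted p = 0.719), Clock (0.08 ± 0.19, adjusted p = 0.904) and Npas2 (-0.27 ± 0.16, adjusted p = 0.49), the activators, did not pass.

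The same clock hours were also sampled without a meal, in NRF mice going from the end of feeding into a fast. In NRF mice, which are without food in the light, 83 genes passed between ZT0 and ZT4 (0.69%), 28 higher (0.233%) and 55 lower (0.457%). With plain read totals, which moved the median of all genes to -0.15, the split was 10 and 152, and the total of 162 was no longer below that of the DRF step (157); with quantile scaling it was 39 and 38, and on the deposited values 26 and 17. Without NRF ZT0 replicate 1, 2 or 4 the count was 21, 13 or 47, and without NRF ZT4 replicate 2, 3 or 4 it was 35, 18 or 45. Of the 333 genes of the DRF step 10 were also called in the NRF step, 3% of the 333 and 12% of the 83. The direction was the same in 7 of them: among these the phosphatase 1 subunit Ppp1r10, the kinase Pim1 and Klf4 were lower at ZT4 in both regimens, and Nr1d1, Bhlhe41 and Cd247 were higher in both. Nr1d1 rose by 1.49 in DRF and by 1.95 in NRF (adjusted p = 2.37e-05), and Ppp1r10 differed by -1.02 and -1.12 (adjusted p = 0.00521). In G0s2, Myod1 and the galactosyltransferase gene B4galt5 (0.56 ± 0.13, adjusted p = 0.0119 in DRF; 6 of 8 fits, up to 0.086 without DRF ZT4 replicate 4) the directions were opposite.

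A test of the difference between the DRF and NRF steps called 93 genes (0.773%), 63 with a higher (0.524%) and 30 with a lower step (0.249%) in DRF. The counts were 70 and 13 with plain read totals, which raised the median of all genes by 0.11, and the total was 53 without DRF ZT4 replicate 3, 57 without DRF ZT0 replicate 1, 51 without NRF ZT4 replicate 4 and 59 without NRF ZT0 replicate 2. Of the 93, 70 were among the 333, and the DRF step is part of this difference. The difference sets the start of food in DRF against the start of a fast in NRF, and their parts in it cannot be told apart. Chac1 had the smallest adjusted p: the NRF libraries were 4.11, 4.57, 13.4 and 6.34 CPM at ZT0 and 38.5, 29.96, 9.04 and 20.8 CPM at ZT4, a log2 difference of 1.62, which did not pass, against -3.05 in DRF; the steps differed by -4.67 ± 0.64 (adjusted p = 4.18e-05). G0s2 was 17.99, 62.1, 31.2 and 41.3 CPM at NRF ZT0 and 10.7, 10.01, 4.78 and 9.48 CPM at NRF ZT4, every ZT4 library below every ZT0 library, and its steps differed by 4.26 ± 0.63 (adjusted p = 0.000103). Myod1 was lower at ZT4 in NRF (-1.12; steps differing by 1.88 ± 0.28, adjusted p = 0.000103). Dusp27 differed by 0.06 in NRF, where it did not pass, against 1.13 in DRF (difference 1.08 ± 0.17, adjusted p = 0.000187).

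The atrophy gene Fbxo32 (-1.78 ± 0.43, adjusted p = 0.0257), Klhl38 (-2.54 ± 0.45, 0.00118), Angptl4 (-3.29 ± 0.80, 0.0276), Arrdc2 (-3.42 ± 0.73, 0.0106), Per1 (-1.96 ± 0.48, 0.0283) and the autophagy gene Atg14 (-0.68 ± 0.12, 0.00182) had lower steps in DRF. Higher steps in DRF were found for Xirp1 (1.67 ± 0.40, 0.0257), Ppp1r27 (1.80 ± 0.31, 0.00118) and Ppp1r3b (1.65 ± 0.38, 0.0218). The difference in Ucp3 did not pass (-1.40 ± 0.53, 0.305), nor did that in Cpt1a (-0.88 ± 0.31, 0.227) or Trim63 (-0.77 ± 0.30, 0.316).

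**Figure D4:**
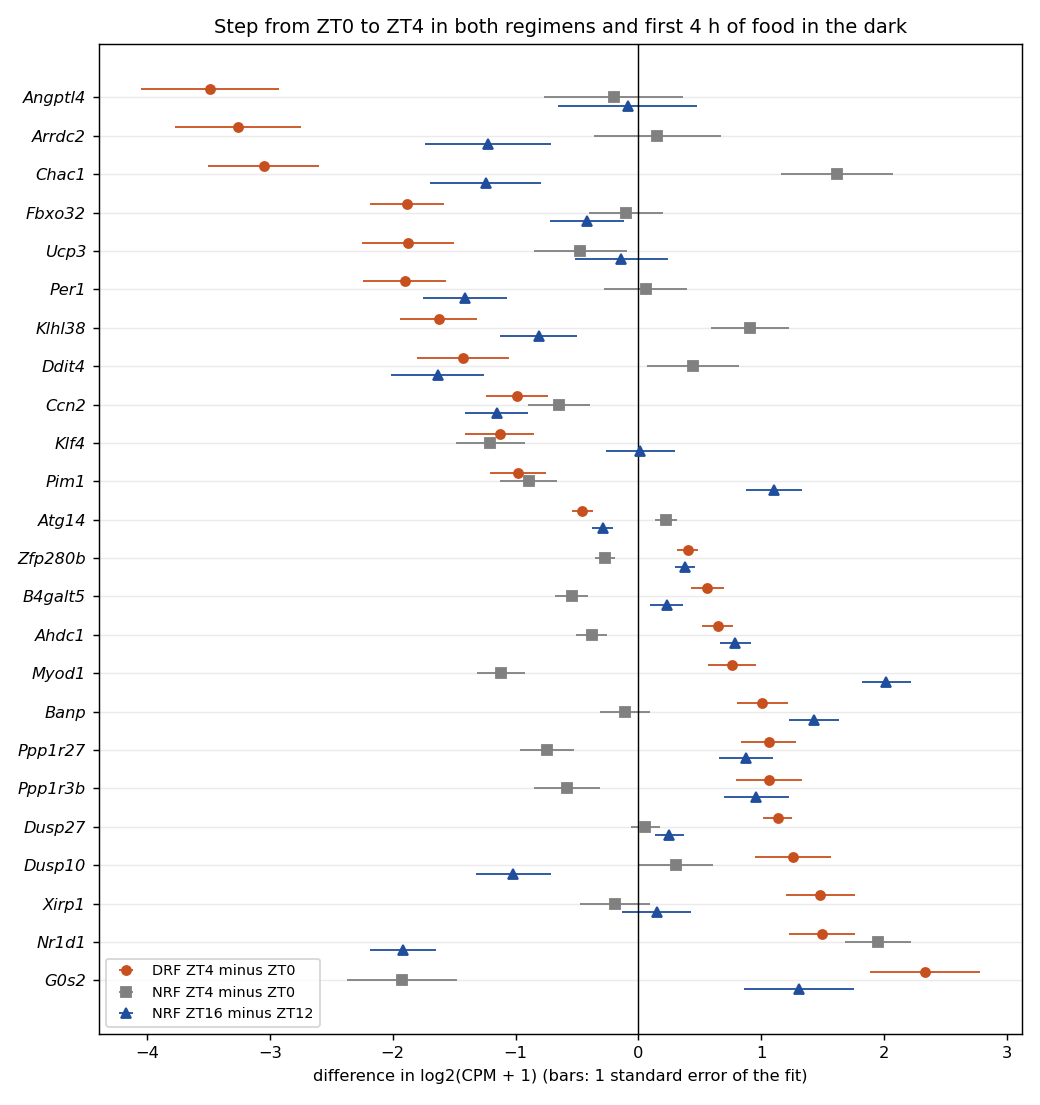
Log2(CPM + 1) differences with standard errors for 24 genes in 3 steps: DRF ZT4 minus ZT0, NRF ZT4 minus ZT0 and NRF ZT16 minus ZT12. Chac1, Klhl38, G0s2 and Myod1 lie on opposite sides of 0 in the DRF step and the NRF step at the same clock hours, and Nr1d1 and Pim1 lie on opposite sides in the DRF and NRF steps into food.

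The first 4 h of food in the dark shared part of the calls. Between NRF ZT12 and ZT16, 187 genes passed (1.56%), 86 higher (0.715%) and 101 lower (0.84%). The split was 36 and 83 with plain read totals and 109 and 64 on the deposited values. The total was 91 or 120 without NRF ZT16 replicate 3 or 4 and 95 without NRF ZT12 replicate 1. The 2 steps into food share no library, and 31 genes were called in both, 9.31% of the 333 and 16.6% of the 187. Of these, 28 had the same direction, 16 higher and 12 lower. Per1 was 109.7, 129, 104 and 115 CPM at NRF ZT12 and 63.6, 50.4, 47.6 and 20.9 CPM at NRF ZT16 (-1.41 ± 0.34, adjusted p = 0.0156). Ddit4 fell in NRF too (-1.63 ± 0.38, 0.0116), as did Ccn2 (-1.15 ± 0.25, 0.00812), Slc10a6 (-1.17 ± 0.22, 0.000961) and Hs3st5, a heparan sulfate sulfotransferase (-1.26 ± 0.12, 3.79e-10). The rises common to both steps included Myod1, at 14.1, 14.1, 11.5 and 12.5 CPM and 48.2, 57.6, 61.6 and 56.4 CPM in NRF (2.02 ± 0.20, 9.69e-10), Banp, a nuclear matrix DNA-binding protein (1.43 ± 0.20, 1.29e-05), Ppp1r3b (0.96 ± 0.27, 0.0498) and Ppp1r27 (0.88 ± 0.22, 0.0256). Hs3st5, Banp and Slc10a6 were named after their values were seen.

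Directions were opposite in 3 genes, Nr1d1 and Pim1 among them. A test of the difference between the steps into food called 73 genes (0.607%), 36 higher (0.299%) and 37 lower (0.308%) in DRF. Of the 73, 39 were among the 333, and the DRF step is part of this difference too. The test called 43 without DRF ZT0 replicate 1, 48 without DRF ZT4 replicate 3 and 46 without NRF ZT16 replicate 3. The smallest adjusted p were those of clock genes: Nr1d1, which fell in NRF (-1.92; difference 3.41 ± 0.38, adjusted p = 1.41e-07), and Ciart, an inhibitor of the clock activators, which did not pass in the DRF step (0.28; difference 2.78 ± 0.34, adjusted p = 1.48e-06). Clock time differs by 12 h between these steps. Pim1 (-2.09 ± 0.33, 0.000303) and Arntl (-1.68 ± 0.30, 0.00185) had lower steps in DRF. Angptl4 differed by -0.09 in the NRF step into food, against -3.49 in DRF (difference -3.40 ± 0.80, adjusted p = 0.024), its NRF libraries standing at 0.781, 3.42, 3.33 and 1.45 CPM before and 3.61, 1.47, 1.71 and 1.11 CPM after. The difference in Fbxo32 did not pass (-1.47 ± 0.43, adjusted p = 0.117), and Fbxo32 was 198 ± 59.5 CPM at NRF ZT12 against 680.0 ± 218 CPM at DRF ZT0. Dusp27 had the higher step in DRF (0.88 ± 0.17, 0.00454).

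Several of the risen genes had lower means later in the day. G0s2 had a mean of 61.2 ± 9.98 CPM at DRF ZT4 and 19.7 ± 11.1 CPM at ZT8, Xirp1 452 ± 145 and 192 ± 67.8 CPM, and Hspa1a 41.1 ± 26.1 and 8.22 ± 5.08 CPM. Fbxo32 was 119.7 ± 30.8 CPM at ZT12, the end of the light phase, and 946 ± 298 CPM at ZT20. These later levels are given as means with SD over 4 libraries and were not tested.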

How the data were processed

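RNA sequencing libraries of mouse gastrocnemius (4 per group, 56 in all) were used. Reads were processed by the submitters with HISAT2, Bowtie2 and RSEM on mm10/GRCm38.p6, per the submitters' processing notes. The deposited table, named TPM by the authors, holds a score: each value equals a library constant times log2(1 + CPM) divided by gene length, a form found from the values (40 checks, largest relative deviation 5.17e-13). It was inverted to counts for 17443 of 19072 genes; 1629 genes with under 4 values above 0 were left out, and 1441 tested genes had decimal counts, from reads shared between genes. The library size in that form was 0.854 to 1.21 of the recovered reads and differed from TMM (trimmed mean of M values) scaling by at most 3.29%.

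limma 3.58.1 (R 4.3.3; lmFit, eBayes with trend) was run on log2(CPM + 1) with all 14 groups and 12025 genes (average CPM of 1 or more), with Benjamini-Hochberg adjustment and a threshold of 0.05. The scripts were tested on simulated data. Every adjusted p in the text is from this limma fit unless a setting is named. Same-numbered libraries correlated at -0.0761 to 0.204, so replicate numbers did not pair them.

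Named genes were the 12 largest rises and 12 largest falls without overlap among called genes above a floor on mean CPM, the 6 largest called and the first 3 members of each list, the 10 and 5 genes with the smallest adjusted p in the regimen differences, and 17 genes added after their values were seen: Klf9, Errfi1, Slc10a6, Map3k6, Fam107a, Bcl2l11, Banp, Hs3st5, Osgin1, Ppp1r10, Mrtfa, Stc2, Depp1, Klf11, Tob2, Cldn5 and Chodl. Some genes are not reported here and stay in the counts. The members and lists were chosen with earlier results of these data known. Alternatives were other pseudocounts, filters, scalings, the deposited values, a length correction, library weights, a replicate block, fewer groups, ZT24 as the group before food, and leaving out each library.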

Additional observations from a re-analysis of the deposited data

Results flagged for a closer look

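Within a group of 4 libraries, a value was singled out where its gap to the nearest of the others was too large a part of the group's range (Dixon's test at the 95% level). This was so in 35 of 318 groups looked at, where chance alone marks about 1 in 20. CPM are given. DRF ZT0 replicate 1 was highest of its group for Arrdc2 (162 against 55.9 to 72.1), Cebpd (83.9 against 16.9 to 26.6), Ddit4 (40.9 against 6.73 to 10.6), Trim63 (564 against 205 to 265), Map1lc3b (211 against 169 to 174), Slc10a6 (2.96 against 1.51 to 1.66), Depp1 (89.03 against 5.66 to 14.98) and lowest of its group for Hspa5 (149 against 167 to 169.7). DRF ZT0 replicate 2 was highest of its group for Mylip (22.3 against 18.1 to 18.6), Schwann cell and nerve markers (486 against 139.7 to 165). DRF ZT0 replicate 3 was highest of its group for Sik1 (58.8 against 30.4 to 33.6), Nr4a2 (13.03 against 3.20 to 3.96), Hspa1b (12.7 against 4.01 to 5.24), Hspa1a (20.3 against 7.94 to 9.49), Myh7 (1548 against 599 to 657), Tnnt1 (407 against 183 to 197), Tnnc1 (233 against 98.5 to 117), endothelial markers (541 against 341 to 364), fibroblast and matrix markers (3105 against 1582 to 1695). DRF ZT0 replicate 4 was lowest of its group for Nolc1 (31.97 against 37.2 to 37.8). DRF ZT4 replicate 1 was highest of its group for Insig1 (29.9 against 16.2 to 18.2) and lowest of its group for Prkab1 (11.2 against 14.2 to 14.6), skeletal muscle fibre markers (129697 against 165281 to 168285). DRF ZT4 replicate 2 was highest of its group for Fosb (12.4 against 0.684 to 0.995), Ppargc1b (31.8 against 26.7 to 27.3). DRF ZT4 replicate 3 was highest of its group for Osgin1 (27.8 against 23.02 to 23.7) and lowest of its group for Pdk4 (378 against 656 to 688), Plin4 (235 against 324 to 342), 1810013L24Rik (36.0012 against 38.0009 to 38.3). DRF ZT4 replicate 4 was highest of its group for Klhl38 (29.8 against 24.5 to 25.2), Il15 (10.4 against 8.36 to 8.40), Psma2 (69.8 against 64.1 to 64.5), Psma3 (152 against 143 to 143) and lowest of its group for Npas2 (3.04 against 3.98 to 4.06), Fosl2 (17.6 against 20.5 to 20.7).

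In 43 cases the step of a named gene differed between the regimens in limma; the log2 difference of the steps, DRF minus NRF, is given with its adjusted p. Over the same clock hours the DRF step was the higher in G0s2 (4.26, 0.000103), Myod1 (1.88, 0.000103), Dusp27 (1.08, 0.000187), B4galt5 (1.10, 0.00118), Ahdc1 (1.03, 0.00118), Ppp1r27 (1.80, 0.00118), Zfp280b (0.67, 0.00118), Hspa5 (0.54, 0.00498), Hyou1 (0.63, 0.00731), Eif4a1 (0.47, 0.00747), Ppp1r3b (1.65, 0.0218), Osgin1 (1.37, 0.0247), Xirp1 (1.67, 0.0257), Hspa1b (2.34, 0.0272), Banp (1.12, 0.0467), Bace1 (1.04, 0.0475). It was the lower in Chac1 (-4.67, 4.18e-05), Klhl38 (-2.54, 0.00118), Atg14 (-0.68, 0.00182), Hs3st5 (-0.79, 0.00963), Arrdc2 (-3.42, 0.0106), Klf11 (-1.46, 0.0224), Fbxo32 (-1.78, 0.0257), Slc43a1 (-1.28, 0.0268), Angptl4 (-3.29, 0.0276), Per1 (-1.96, 0.0283), Bcl2l11 (-0.92, 0.034). Over the first 4 h of food the DRF step was the higher in Nr1d1 (3.41, 1.41e-07), Ciart (2.78, 1.48e-06), 1810013L24Rik (0.67, 0.00185), Dusp27 (0.88, 0.00454), Dusp10 (2.28, 0.00454), Bhlhe41 (1.77, 0.00755), Stc2 (1.62, 0.024), Eif4a1 (0.38, 0.0357). It was the lower in Pim1 (-2.09, 0.000303), Pnpla3 (-2.31, 0.000725), Arntl (-1.68, 0.00185), Arrdc3 (-1.68, 0.00486), Slc38a2 (-1.16, 0.00882), Myod1 (-1.26, 0.0147), Nr4a2 (-1.33, 0.0238), Angptl4 (-3.40, 0.024).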

How the results depend on the processing

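Of the 333 genes of the DRF step, all 333 kept their sign under every setting tried that measured them except with ZT24 in place of ZT0, where 328 did. The number called was 157 with plain read totals, 186 with only the groups compared in the fit, 1099 with library weights and 508 with ZT24 as the group before food, and 133 to 300 without 1 library. With ZT24 the difference in Slc25a25 turned to 0.69. The NRF step from ZT0 to ZT4 called 53 genes with no filter, 162 with plain read totals, 43 on the deposited values, 25 with only the groups compared and 450 with library weights, and 13 to 116 without 1 library. The difference between the steps at the same clock hours called 46 on the deposited values, 437 with library weights and 51 to 97 without 1 library. The NRF step into food called 119 with plain read totals, 50 with only the groups compared, 507 with library weights and 91 to 206 without 1 library. The difference between the steps into food called 22 with only the groups compared, 226 with library weights and 43 to 95 without 1 library. The cause of these changes was not tested. Of the 80 named genes past the test in the DRF step, 52 passed with plain read totals, 45 with only the groups compared, 49 with ZT24 as the group before food, 80 with TMM scaling, 63 on the deposited values and 31 in all 8 fits without 1 library.

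With the replicate number as a block the 5 counts were 325, 78, 93, 183 and 75 in the same order, and 79 of the 80 named genes still passed; of the 4 replicate numbers, only number 4 correlated best with itself. In limma 1607 genes had an unadjusted p under 0.05 in the DRF step, against 333 after adjustment. Genes below a mean of 1 CPM were not tested, and with 4 libraries a group a p over 0.05 does not show that a gene did not change.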
